A study of Mus musculus with 3 samples.

Results

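The genes described here encode the BCL2 family, the proteins that decide whether the mitochondrial outer membrane is opened during apoptosis. H3K27ac, acetylation of lysine 27 of histone H3 and a mark of active promoters and enhancers, was measured at them by ChIP-seq in tumour-derived myeloid cells. The genes were 5 pro-survival members (Mcl1, Bcl2, Bcl2l1, Bcl2a1b and Bcl2a1d) and 5 pro-death members (Bbc3, Bcl2l11, Bid, Bax and Bak1). Every region of the deposited table with one of these names in its gene list was taken, which gave 30 of the 22399 regions. These 30 regions stood for 8 of the 10 genes, with 15 regions at 3 pro-survival genes and 15 at 5 pro-death genes.

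In the GNE-781 group, SCID.beige mice with a subcutaneous tumour received 25 mg/kg of GNE-781, an inhibitor of the bromodomain that CBP and EP300 share, by gavage 2 times a day for 7 days. In the vehicle group, mice of the same strain and with the same kind of tumour received MCT, the vehicle, on that schedule. The hosts of both groups carried the scid and beige mutations, which leave them without mature T and B cells and with impaired NK cells. All were females, 6 to 8 weeks old per the labels. Tumours are described there as MDA.MB.231-X1.1 (derived from human triple-negative breast cancer cells) or CT26 (from a colon carcinoma of the mouse), and the titles of both ChIP libraries read "tnbc". The cells sorted from the digested tumours were called total myeloid-derived suppressor cells (MDSC), gated as positive for CD45, CD11b and Ly6C, either way for Ly6G, and negative for F4/80. There was 1 library per treatment, and a pooled input library that has no column in the table and was not used. How many mice stand behind a library is not given, so values below are single measurements with no replicate error, and no test and no p-value could be given. A mixed population was measured, so that fewer cells carrying the mark and less mark per cell cannot be told apart.

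Pro-survival BCL2 proteins hold the effectors BAX and BAK in check and bind the BH3-only proteins. The BH3-only proteins, among them PUMA (the product of Bbc3), BIM (Bcl2l11) and BID, respond to stress and either free or directly activate BAX and BAK. The effectors then form pores in the mitochondrial outer membrane and release cytochrome c. Neutrophils are short-lived and depend in mice on MCL1, a protein with a rapid turnover, while A1 (encoded by the Bcl2a1 copies) is a target of NF-kB in blood cells. CBP and EP300 are the acetyltransferases that place most H3K27ac.

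The starts of the genes on which the comparison turns are shown first, as the 250 bases before the RefSeq transcript start (build GRCm38.p6), read 5′ to 3′ on the strand of the gene. By average signal, Mcl1 and Bbc3 had the largest H3K27ac differences among the regions nearest to a member's start, Bcl2 and Bcl2l11 the smallest, and Bcl2a1b and Bcl2a1d had no region. Capitals mark TGACG, which is the core of the cyclic AMP response element bound by the CBP partner CREB, and GAGGAAGT, an ETS sequence of the kind bound by the myeloid factor PU.1, each found on either strand.
Mcl1 (chr3:95658471-95658720, plus strand): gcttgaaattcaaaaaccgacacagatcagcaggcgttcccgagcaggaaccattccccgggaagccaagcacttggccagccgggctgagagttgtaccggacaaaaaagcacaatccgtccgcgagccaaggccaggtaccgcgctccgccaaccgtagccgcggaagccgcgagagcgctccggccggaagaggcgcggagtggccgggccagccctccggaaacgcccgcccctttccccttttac
Bbc3 (chr7:16309333-16309582, plus strand): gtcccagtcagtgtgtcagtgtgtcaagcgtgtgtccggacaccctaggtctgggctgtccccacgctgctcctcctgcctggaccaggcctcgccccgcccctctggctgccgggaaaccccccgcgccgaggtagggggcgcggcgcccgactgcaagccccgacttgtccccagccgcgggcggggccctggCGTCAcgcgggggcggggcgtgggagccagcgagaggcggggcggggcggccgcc
Bcl2 (chr1:106714291-106714540, minus strand): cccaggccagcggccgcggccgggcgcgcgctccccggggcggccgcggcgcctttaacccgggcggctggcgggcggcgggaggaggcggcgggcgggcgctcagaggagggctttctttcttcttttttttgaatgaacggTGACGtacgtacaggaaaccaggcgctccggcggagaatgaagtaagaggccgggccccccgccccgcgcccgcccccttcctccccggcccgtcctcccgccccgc
Bcl2l11 (chr2:128125788-128126037, plus strand): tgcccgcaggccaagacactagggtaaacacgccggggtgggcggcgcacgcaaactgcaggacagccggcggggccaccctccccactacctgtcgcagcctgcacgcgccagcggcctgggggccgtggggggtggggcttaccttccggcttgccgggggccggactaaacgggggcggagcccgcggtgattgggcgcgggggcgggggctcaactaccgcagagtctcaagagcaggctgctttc
Bcl2a1b (chr9:89199023-89199272, plus strand): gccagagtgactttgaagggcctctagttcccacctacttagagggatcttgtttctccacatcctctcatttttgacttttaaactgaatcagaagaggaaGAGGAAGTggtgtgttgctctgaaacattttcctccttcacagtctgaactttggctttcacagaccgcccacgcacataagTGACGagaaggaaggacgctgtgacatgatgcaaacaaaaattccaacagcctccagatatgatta
Bcl2a1d (chr9:88731851-88732100, minus strand): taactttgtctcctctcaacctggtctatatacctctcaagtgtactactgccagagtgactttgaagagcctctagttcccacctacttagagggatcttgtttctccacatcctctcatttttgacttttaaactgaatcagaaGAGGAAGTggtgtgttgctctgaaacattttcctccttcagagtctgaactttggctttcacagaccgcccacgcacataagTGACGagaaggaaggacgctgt

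RefSeq lists 15 starts for the 10 genes, and 11 of them lay inside a region of the table. The GC content before the start was 64.4% at Mcl1, 76.4% at Bbc3, 74.8% at Bcl2 and 72% at Bcl2l11, against 44.8% at both Bcl2a1b and Bcl2a1d and a median of 52.4% over 32851 promoters. The windows held 26 CpG dinucleotides at Mcl1 and 4 at each Bcl2a1 copy. A set of 6 short sequences was searched on both strands of the same 250 bases. TGACG was found in 4 of the 15 member windows (Bcl2, Bbc3, Bcl2a1b and Bcl2a1d) and in 17.8% of all promoters. GAGGAAGT was found in 3 of the 15 (Bcl2a1b, Bcl2a1d and Bak1) and in 2.44% of all promoters. The 15 windows are not separate: those of Bcl2a1b and Bcl2a1d are near copies of each other, and some genes have more than 1 start. The member counts are therefore not shares to set against those of all promoters. Neither the full element TGACGTCA (1.55% of all promoters), which contains TGACG, nor the STAT palindrome TTCCNGGAA (0.913%) was found in a member window. Neither of 2 NF-kB consensus sites of 10 bases (0.140% and 0.0852% of all promoters) was found there. A match is a run of letters and not evidence of binding, and these windows cover only the bases next to a start.

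Signal was lower with GNE-781 at all 30 regions of the family, and at 22325 of all 22399 regions. All 30 had a called interval with vehicle, as had 22310 of all regions, while 8 of the 30 had one with GNE-781. Most regions thus had a call only in the library with the higher signal, which favours a lower value with GNE-781. Of the 30 regions, 29 were at least 2-fold lower. The background for that count is 93.4% of all regions at least 2-fold lower, so it follows the whole table and is no result about these genes. Signal stands for the average height of the fragment pileup in a region, as deposited. Differences are log2(GNE-781 signal + 1) minus log2(vehicle signal + 1), so that negative means lower with GNE-781. The median signal over the 30 regions was 5.00 with GNE-781 and 17.2 with vehicle, and the median difference was -1.74, against -1.61 over all regions. Whether the deposited pileup includes a scaling by the Drosophila spike-in is not known, and a constant factor between the libraries would move the differences by about the same amount. Relative to the median of all regions, the strongest regions of Bcl2 (0.10) and Bcl2l11 (0.11) stood above it, and those of the other 6 genes below it, as did the strongest regions of 67.3% of all genes. By the highest pileup in a region, Bcl2 (-2.24) and Bcl2l11 (-1.76) were below the median of all regions too (-1.61). The 30 regions covered 86.0 kb with a median length of 2384 bp, longer than the median of 1420 bp over the table. Of the 30, 14 are also listed under another gene.

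Myeloid identity was checked on marker genes. Of 11 MDSC, neutrophil and monocyte markers, 9 had a region, with signals of 3.51 to 5.96 with GNE-781 and 13.0 to 24.0 with vehicle, and Ly6c1 and Ccr2 had none. No region was assigned to Adgre1, the gene of F4/80, for which the gate was negative. Of 16 markers of T, B, NK, epithelial, stromal and endothelial cells, 5 had a region. They were Cd3g (4.59 with GNE-781, 26.6 with vehicle), Cd79a (4.91 with GNE-781, 19.5 with vehicle), Krt8 (3.69 with GNE-781, 14.2 with vehicle), Pecam1 and Kdr. Pecam1 and Kdr had 3.79 to 4.34 with GNE-781 and 14.2 to 17.2 with vehicle. Among the markers without a region were Cd3e, Cd4, Cd8a and Ms4a1. With vehicle, Cd3g lay above the range of the myeloid markers and the others with a region lay within it. The level of signal at a marker thus does not separate the cell types. The part of other cells in the signal at the BCL2 family was not tested.

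**Figure D1:**
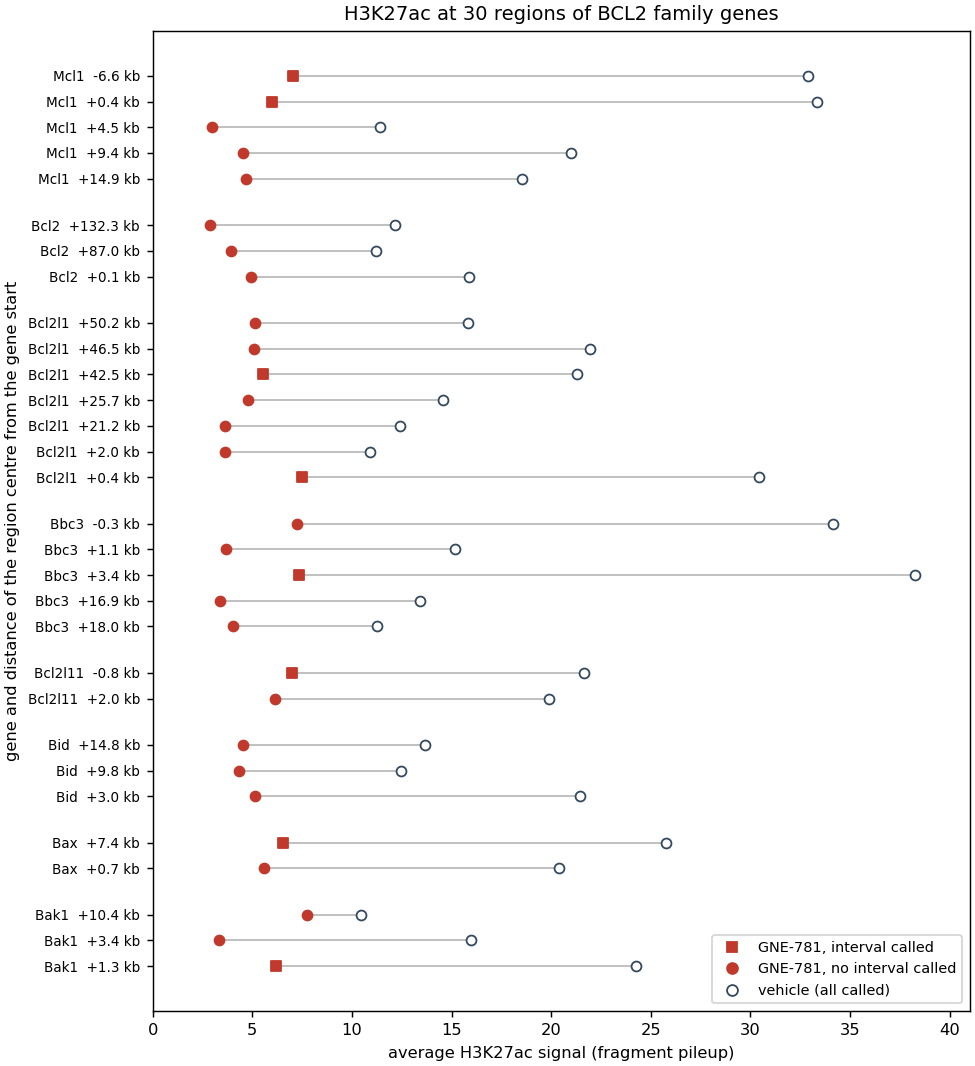
Average H3K27ac signal (x axis, fragment pileup) at each of the 30 regions, listed by gene and by position on the chromosome with the distance of the region centre from the gene start. Filled red symbols are the GNE-781 library, squares where an interval was called in it, and open circles are the vehicle library, in which all 30 had a call. GNE-781 values lie between 2.89 and 7.74 and vehicle values between 10.5 and 38.3, so the libraries do not overlap at these regions. Over the table, 22325 of 22399 regions were lower with GNE-781 and 22310 had a call with vehicle. The separation is thus no result about the family.

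Among pro-survival genes, Mcl1 carried the most acetylated chromatin. Its 5 regions covered 26.1 kb of a 28.5 kb stretch on chromosome 3, a longer covered length than at 99.3% of the 13443 genes with a region. At the start of Mcl1 (95656492 to 95661808) the signal was 6.01 with GNE-781 and 33.3 with vehicle, a difference of -2.29 and the largest of the 30 regions (coordinates here and below are those of the table, which match mouse GRCm38). Only 3.17% of all regions had a more negative difference than that one. The adjoining upstream region (95647829 to 95656491), 8662 bp long and the longest of the family, had 7.06 with GNE-781 and 32.9 with vehicle (-2.07). Both kept a called interval with GNE-781. The other regions are listed as downstream, although the first of them overlaps the end of the gene. Their signal with GNE-781 was 2.97 against 11.4 with vehicle at 4.48 kb from the start (-1.64), and 4.56 against 21.0 with vehicle at 9.42 kb (-1.99). It was 4.68 against 18.5 with vehicle at 14.9 kb (-1.78), and no interval was called with GNE-781 at any of them. The last of these lies nearer to the start of Adamtsl4, a secreted matrix protein gene, than to that of Mcl1.

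Bcl2l1, which encodes BCL-XL, had 7 regions in all, and 487 genes of the table had as many or more. They were spread over 51.8 kb of chromosome 2, all within the gene span. The region at the start (152830497 to 152831999) had a signal of 7.49 with GNE-781, the highest GNE-781 value of the family after a region beside Bak1, and 30.5 with vehicle (-1.89). A second cluster lay far inside the gene, and 2 of its regions were above the vehicle median of 17.7 for promoter regions. Its 3 regions, 42.5 to 50.2 kb from the start, had signals of 5.56, 5.09 and 5.14 with GNE-781, and 21.3, 21.9 and 15.8 with vehicle, for differences of -1.77, -1.91 and -1.45. The first of these, 5084 bp long, was the one region of the family outside a promoter at which an interval was called with GNE-781. The remaining 3, at 1.96, 21.2 and 25.7 kb, had 3.62, 3.61 and 4.79 with GNE-781 and 10.9, 12.4 and 14.6 with vehicle, and their differences lay between -1.54 and -1.36.

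Bcl2 itself had the lowest signal in both libraries of the 8 genes with a region, by the strongest region of each. The region at its start (chromosome 1, 106713411 to 106715069) had a signal of 4.92 with GNE-781 and 15.9 with vehicle (-1.51), close to the vehicle median of 14.5 over all regions. The highest pileup within it was 10 with GNE-781 and 51 with vehicle, and by that measure its difference was -2.24. Of its 2 other regions, 87.0 and 132 kb into the gene, the nearer had 3.93 with GNE-781 and 11.2 with vehicle (-1.31), and the farther had 2.89 with GNE-781 and 12.2 with vehicle (-1.76). The farther one lies nearer to D630008O14Rik. No interval was called at Bcl2 with GNE-781.

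No region was assigned to Bcl2a1b or Bcl2a1d, or to the copies Bcl2a1a and Bcl2a1c. The region nearest to Bcl2a1d lay 13.4 kb from the gene, with a signal of 1.96 with GNE-781 and 11.3 with vehicle, and was listed under Gm2382 and Gm10634. The nearest to Bcl2a1b lay 48.6 kb away, with 3.67 with GNE-781 and 8.85 with vehicle, and had no gene. The copies resemble each other closely: of 250 bases that could be aligned between the 300-base RefSeq start windows of Bcl2a1b and Bcl2a1d, 247 were identical (98.8%), with 6 further bases in gaps. How reads that match several copies were treated is not given in the sources used here, and whether that left the genes without a region was not tested.

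**Figure D2:**
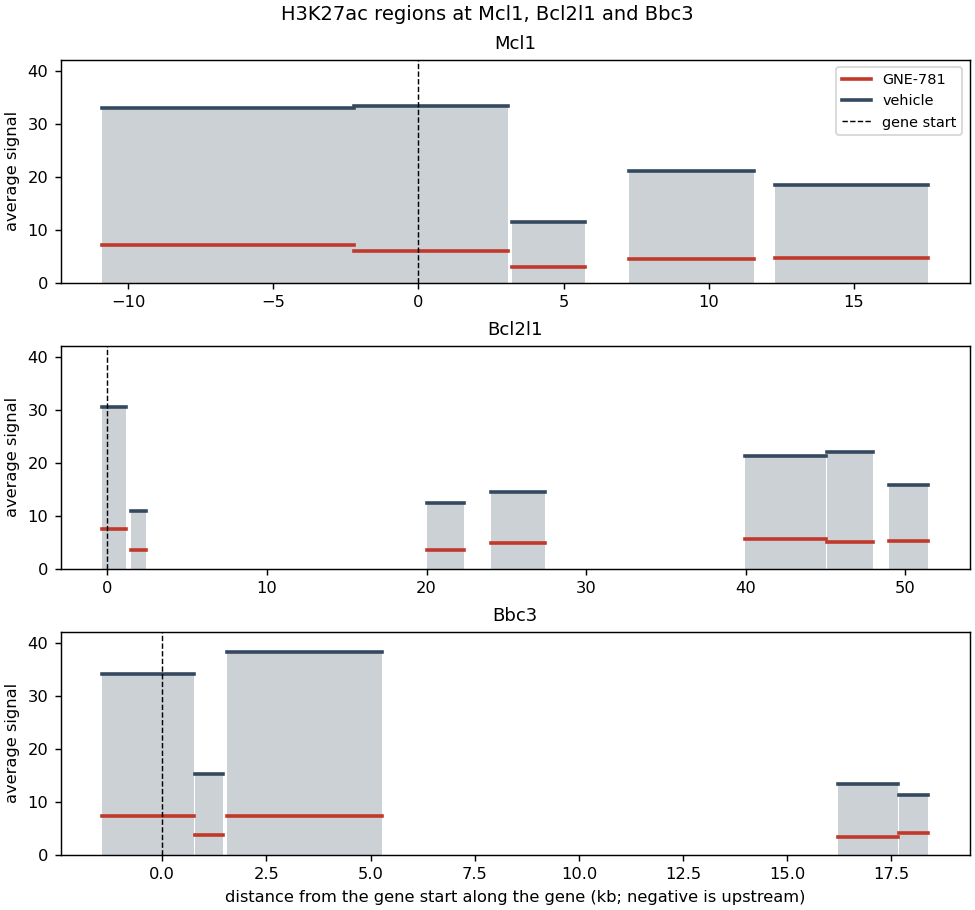
Regions at Mcl1, Bcl2l1 and Bbc3 drawn to scale along each gene (x axis, distance from the gene start in kb, with a scale of its own in each panel), with the average signal of each region as a red line for GNE-781 and a dark line with grey fill for vehicle. At each region the red line lies below the dark one, and the tallest vehicle regions lie at or within 7 kb of the start.

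Among BH3-only genes, Bbc3 was the counterpart of Mcl1 in signal and in difference. Its region inside the gene on chromosome 7 (16311138 to 16314867), with 2 CpG islands, had a signal of 7.37 with GNE-781 and 38.3 with vehicle, the highest vehicle value of the family, and a difference of -2.23. The region at the start (16308144 to 16310336) had 7.27 with GNE-781 and 34.1 with vehicle (-2.09). That start region had no called interval with GNE-781, although its vehicle signal was higher than that of Mcl1. Between them a short region had 3.67 with GNE-781 and 15.2 with vehicle (-1.79). Farther down, at 16.9 and 18.0 kb and also assigned to Sae1, the signals were 3.37 and 4.05 with GNE-781 and 13.4 and 11.3 with vehicle (-1.72 and -1.28).

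Bcl2l11, the gene of BIM, kept more of its signal than the median region of like strength. The region over its start (chromosome 2, 128122858 to 128127553) had 7.01 with GNE-781 and 21.7 with vehicle (-1.50), and its neighbour inside the gene (128127614 to 128128453) had 6.15 with GNE-781 and 19.9 with vehicle (-1.55). With all regions split into 10 classes of nearly equal size by vehicle signal, the median difference was -1.89 in the class of the first and -1.76 in that of the second, so these stood 0.39 and 0.21 above their class. The vehicle signal of the first equals the lowest of its class and the highest of the class of the second. The 0.39 thus depends on how ties were placed, while the region stood above the median of either class. The first was called with GNE-781. Both are also listed under Acoxl.

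Bid, whose product is cleaved by caspase 8 in death receptor signalling, had its strongest region at the start (chromosome 6, 120910470 to 120917125), with 5.15 with GNE-781 and 21.5 with vehicle (-1.87). Its 2 intragenic regions, 9.78 and 14.8 kb from the start, had 4.33 and 4.51 with GNE-781 and 12.4 and 13.7 with vehicle (-1.33 and -1.41). None of the 3 was called with GNE-781.

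The effector genes Bax and Bak1 share their regions with neighbours. At the start of Bax (chromosome 7, 45465275 to 45467220) the signal was 5.59 with GNE-781 and 20.4 with vehicle (-1.70). The stronger region assigned to Bax (45456713 to 45462226), with 6.57 with GNE-781 and 25.8 with vehicle (-1.82), lies 417 bp from the start of Ftl1, the ferritin light chain gene, and 7429 bp from that of Bax. At the start of Bak1 (chromosome 17, 27025618 to 27029102) the signal was 6.20 with GNE-781 and 24.2 with vehicle (-1.81), and an interval was called in both libraries. A region inside Bak1 had 3.35 with GNE-781 and 16.0 with vehicle (-1.96).

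The 1 region of the family that was not 2-fold lower lay 10.4 kb from the start of Bak1 and 171 bp from that of Ggnbp1 (chromosome 17, 27017890 to 27018523). It had the highest GNE-781 signal of the family, 7.74, and the lowest vehicle signal, 10.5, for a difference of -0.39. Of all regions, 99.6% had a more negative difference. It was the shortest of the 30, at 633 bp, and no interval was called in it with GNE-781, while its highest pileup was 13 with GNE-781 and 17 with vehicle.

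The medians of pro-survival and pro-death regions lay close together, and by regions their order depended on the measure. Over 15 pro-survival regions the median was 4.79 with GNE-781 and 15.9 with vehicle, and the median difference was -1.76. Over 15 pro-death regions the medians were 5.59 with GNE-781 and 19.9 with vehicle, and the difference was -1.72. By the strongest region of each gene the pro-survival median was -1.89 over 3 genes and the pro-death median -1.82 over 5, against -1.78 over all genes. The pro-survival minus pro-death gap of -0.067 was small beside the range within each group, which ran from -2.07 (Mcl1) to -1.51 (Bcl2) and from -2.23 (Bbc3) to -1.50 (Bcl2l11). By average signal, each group thus held a strong gene with a large difference and a gene with a small one. By the highest pileup Bcl2 stood at -2.24 and Bcl2l11 at -1.76, against -1.89 over all genes, so Bcl2 no longer had a small difference. All 8 genes were at least 2-fold lower, as were 96.1% of all genes. By genes, the pro-survival median stayed the more negative under every alternative tried, with gaps from -0.293 (peak signal, which moved Mcl1 to its start region) to -0.037 (peak signal at the regions chosen by average signal). Some of these could not move it: recentring cancels in the gap, and promoter regions alone and the filter on weak regions kept the same region for each gene. Each reported median is also the value of 1 gene, Bcl2l1 for pro-survival and Bax for pro-death genes. The Bax value is that of the region beside the start of Ftl1, not of the region at its own start (-1.70). Without regions nearer to another gene the gap was -0.081. By regions, with the highest pileup in place of the average, the order turned round, with -1.56 for pro-survival and -1.80 for pro-death regions. It did so too with regions nearer to another gene left out, with -1.64 for pro-survival and -1.72 for pro-death regions, and with no pseudocount, with -1.94 and -1.97.

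The groups differed in the kind of region they held. Of the pro-survival regions 5 of 15 lay over a promoter and 3 over a CpG island, and of the pro-death regions 10 of 15 and 8, while 51.9% of all regions lay over a promoter and 38.3% held a CpG island. Over promoters the median difference was -1.89 for 5 pro-survival and -1.80 for 10 pro-death regions, against -1.71 for all promoter regions. Elsewhere it was -1.70 for 10 pro-survival and -1.41 for 5 pro-death regions, against -1.52 for all such regions. Within both kinds of region the pro-survival median was thus the more negative, with no error that could be put on either gap. The split did not match the groups for strength. The vehicle median was 30.5 for pro-survival and 21.6 for pro-death regions over promoters, and 15.2 and 13.4 elsewhere. Strong regions had larger differences throughout the table.

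A ratio of genes within a library is free of any constant factor between libraries, but not of a difference that changes with strength. The mean signal of the pro-survival genes over that of the pro-death genes was 1.00 with GNE-781 and 1.00 with vehicle. Taken by the region nearest to each start, it was 0.983 with GNE-781 and 1.09 with vehicle. Of 15 ratios of a pro-survival over a pro-death gene, 7 were higher with GNE-781 and 8 with vehicle by the strongest regions, and 6 were higher with GNE-781 and 9 with vehicle by the nearest. With all regions weighted by length, pro-survival over pro-death signal was 0.892 with GNE-781 and 0.968 with vehicle.

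The ratios of Mcl1 moved most against Bcl2l11. Mcl1 over Bcl2l11 was 1.01 with GNE-781 and 1.52 with vehicle by the strongest regions, and 0.857 with GNE-781 and 1.54 with vehicle by the regions nearest to the starts. By the nearest regions, all 5 ratios with Mcl1 on top were lower with GNE-781. With Bcl2 on top, the ratio to Bbc3 was 0.668 with GNE-781 and 0.414 with vehicle. No interval was called with GNE-781 at the Bcl2 region. Its GNE-781 signal of 4.92 was near the median of 4.67 over all regions, and no background was subtracted here. A higher Bcl2 ratio with GNE-781 therefore does not show that the mark was kept at Bcl2. The highest of the 8 genes was 1.52 times the lowest with GNE-781 and 2.41 times with vehicle, so the genes lay closer together in the GNE-781 library. Such a narrowing was not particular to the family. Over the table, the median difference was -1.31 in the weakest of 10 classes by vehicle signal and -2.05 in the strongest, and the ratios were not adjusted for this.

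**Figure D3:**
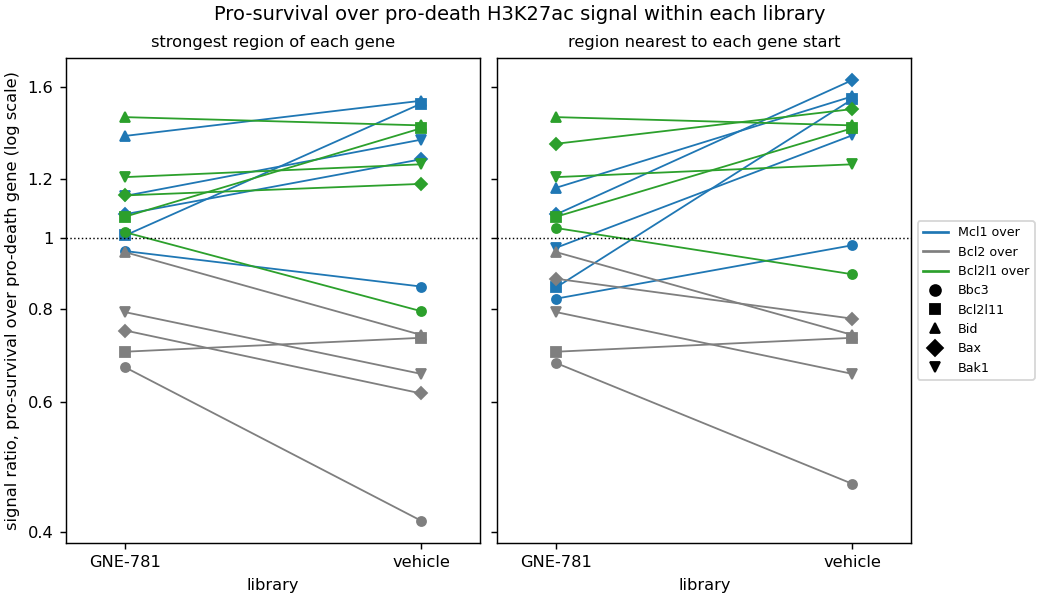
Ratio of the signal of a pro-survival gene (line colour) over that of a pro-death gene (symbol) in the GNE-781 library and in the vehicle library, on a log scale, for the strongest region of each gene and for the region nearest to its start. Lines with Mcl1 over Bcl2l11, Bid, Bax or Bak1 are lower with GNE-781 in both panels, and the Bcl2 lines to Bbc3, Bid, Bax and Bak1 are higher. At Bcl2 and Bid no interval was called with GNE-781.

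Strong regions had larger differences throughout the table, so the members were also set beside regions of like strength. Across the 10 classes by vehicle signal, the median difference ran from -1.31 in the weakest to -2.05 in the strongest. Of the 30 regions, 16 were below the median of their class and 14 above, where 50% of all regions are below by construction. Of the 15 pro-survival regions 10 were below it, 5 of these from the Mcl1 locus alone, and of the 15 pro-death regions 6. Regions of the same gene are not separate members, so these counts do not compare the groups. All 5 Mcl1 regions were below it, with gaps between -0.32 and -0.02, whereas both Bcl2l11 regions and both Bax regions were above it. The vehicle value enters both the class and the difference, and these counts describe 2 libraries only.

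**Figure D4:**
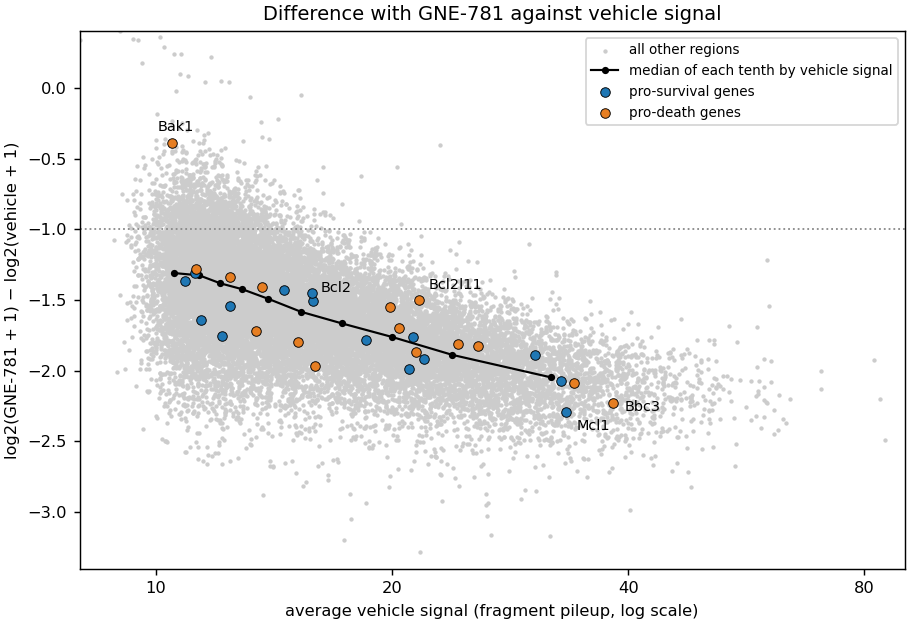
Log2 difference between GNE-781 and vehicle (y axis) against average vehicle signal (x axis, log scale), with grey dots for other regions (61 of them lie outside the axes), blue for pro-survival and orange for pro-death genes. The black line joins the medians of the 10 classes by vehicle signal and the dotted line marks 2-fold lower, which the region labelled Bak1, at -0.39, alone of the 30 exceeds.

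Intervals called with GNE-781 were found at 8 of the 30 regions (26.7%), against 10.3% of all regions. They lay at Mcl1 (2), Bcl2l1 (2), Bbc3, Bcl2l11, Bak1 and the Ftl1 region of Bax, so that 4 were pro-survival and 4 pro-death. Of the 15 regions over a promoter 7 were called, against 15.6% of all promoter regions, and of the 15 others 1 was, against 4.48%. Promoter regions are those with a deposited promoter count above 0, which among 12057 regions with 1 gene matched an overlap with the stretch from 7500 bp before to 2500 bp after its start in 99.99%. By that window, 2 of the 15, beside Ftl1 and Ggnbp1, are over the promoter of the neighbour only. All 8 were among the 13 family regions that belong to the 5600 strongest of the table by vehicle signal (61.5%, against 35.2% of those 5600). They were also long. The shortest was 1502 bp, and of the 4410 strong regions at least as long 40.6% were called. That cutoff was taken from the called family regions and all 13 strong family regions pass it, so it does not match for length. The median length was 4317 bp for the 13 and 2108.5 bp for the 5600. Counted by gene, 6 of 8 had a called region, all but Bcl2 and Bid, against 25% of all genes. The 25% is not matched for the number or length of regions of a gene, and Bax counted only through the Ftl1 region. With 13 regions, these shares are descriptions, and the length and strength of the regions were not separated further.

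The wider cell death pathway was covered to a like degree. Of 38 further apoptosis genes, 32 had a region and 31 of these were at least 2-fold lower, with a median of -1.90. Of all genes, 96.1% were, and their median was -1.78, so the count is near the background. Among other BH3-only and effector genes, 6 of 8 had a region (median -1.78). Bmf, a BH3-only gene, had the most negative difference, with 4.20 with GNE-781 and 21.2 with vehicle (-2.10). Bik, another, had the least negative, with 6.81 with GNE-781 and 10.4 with vehicle (-0.54), in a region 18671 bp past its start and shared with Mcat. Bik was the only wider gene short of 2-fold. Bcl2l2, which encodes BCL-W, was the 1 of 4 other pro-survival genes with a region (4.09 with GNE-781 and 15.4 with vehicle, -1.69).

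Downstream of the mitochondria, 7 of 8 apoptosome and caspase genes had a region, all at least 2-fold lower, as 96.1% of all genes were (median -1.95). Apaf1, the scaffold of the apoptosome, had the most negative difference, with 5.76 with GNE-781 and 30.1 with vehicle (-2.20), and the executioner caspase gene Casp6 the least, with 4.97 with GNE-781 and 12.0 with vehicle (-1.12). The 4 genes of inhibitor of apoptosis proteins had a median of -1.88. Birc2 had the most negative difference of them (-1.92), with 11.3 with GNE-781 and 45.8 with vehicle, and Xiap the least (-1.59), with 4.03 with GNE-781 and 14.2 with vehicle. Birc2 had higher signal in both libraries than any strongest region of the 8 BCL2 family genes.

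Among 6 death receptor genes (median -1.61), the kinase gene Ripk1 had the most negative difference, with 5.74 with GNE-781 and 33.6 with vehicle (-2.36), and the receptor gene Tnfrsf10b the least (-1.28). Of 4 genes that control turnover of MCL1 protein (median -2.00), the most negative was at Usp9x, a deubiquitinase gene (-2.10), and the least at Btrc, part of a ubiquitin ligase (-1.54). Of 4 factors that act upstream of BH3-only genes (median -1.91), the most negative was at Foxo3 (-1.94) and the least at Trp53, which encodes p53, with 7.78 with GNE-781 and 24.3 with vehicle (-1.53). All genes of these 3 lists were at least 2-fold lower, as 96.1% of all genes were.

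**Figure D5:**
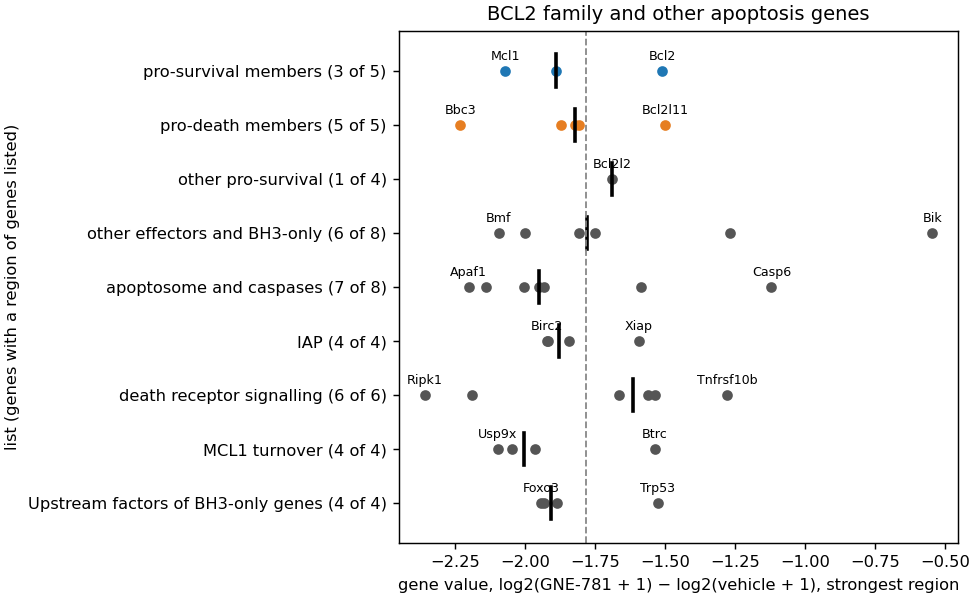
Gene values (x axis, log2 difference at the strongest region of each gene) for the BCL2 family members and 7 further apoptosis lists, with the number of genes that had a region of those listed. Dots are genes, black bars are list medians, the dashed line is the median of -1.78 over all genes, and the lowest and highest gene of each list is named. The lists overlap widely, and Bik stands apart at -0.54.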

How the data were processed

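H3K27ac ChIP-seq of sorted mouse MDSC was deposited as a table of regions for 1 GNE-781 and 1 vehicle library. Per the labels' protocols, chromatin was fixed with 1% formaldehyde, Drosophila chromatin was added to each reaction as a spike-in, and 150 bp paired reads with fragments of about 380 bp were sequenced. The submitters' processing notes list BWA and SICER and the builds hg19 and dm3, without versions or settings. The average and peak signal per region are as deposited by the authors, and whether they were scaled by the spike-in or to a common depth is not stated, so the depth is unknown. The Present flags, as deposited, mark where an interval was called in a library.

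The coordinates are of the mouse: of 21915 pairs of region and gene with a RefSeq promoter, 99.99% were on that gene's GRCm38.p6 chromosome and 96.9% gave a start within 1 kb of a RefSeq start, and all 30 pairs of the members did. Coordinates are printed as the table gives them.

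The difference was log2(GNE-781 + 1) minus log2(vehicle + 1), and the pseudocount of 1 understates differences at weak regions. A gene took the value of whichever of its regions had the highest signal averaged over both libraries. With 1 library per treatment no test was run, and at least 2-fold was used as a rule of size. Only the function for the difference was tested on simulated data, with known factors put in. Python 3.11.15 with pandas 2.3.3, numpy 2.4.6 and biopython 1.88 was used. Promoter sequences are those of RefSeq, and all 10 members matched by symbol. Members and lists were chosen with earlier results of these data known. All members were named with every region, and of each further list the lowest and highest gene. Alternatives were peak signal, other pseudocounts, a filter on weak regions, promoter regions alone, recentring, and other gene values.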

Additional observations from a re-analysis of the deposited data

How the results depend on the processing

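All values rest on 1 library per treatment, so no setting has a replicate error beside it, and the depth of the libraries is unknown. No paired analysis was possible because there is 1 library per treatment and the results come from no test. The median difference of all 30 regions, of pro-survival regions and of pro-death regions, -1.74, -1.76 and -1.72 as reported, was in that order -1.78, -1.56 and -1.80 with peak signal; -1.95, -1.94 and -1.97 with no pseudocount; -1.79, -1.83 and -1.76 without weak regions; -1.81, -1.89 and -1.80 with promoter regions alone; and -0.13, -0.15 and -0.12 after recentring on the median of all regions. Without regions nearer to another gene, an alternative chosen after seeing the data, the first was -1.71 and the pro-survival value -1.64. The pro-survival minus pro-death gap of gene medians, -0.067 as reported, was -0.293 with peak signal, where Mcl1 took its start region, and -0.037 with peak signal at the regions chosen by average signal, an alternative added after seeing the data. It was -0.052 with no pseudocount, -0.084 with the mean over all regions of a gene, and -0.081 with the region nearest to the start as well as without regions nearer to another gene. At least 2-fold lower were 14 of 15 regions with promoters alone, and 0 of 30 after recentring, where 0.371% of all regions were. After recentring, Bcl2 stood at 0.10 and Bcl2l11 at 0.11, above the median of all regions, and this follows from the shift itself. With peak signal Bbc3 stood at -2.87 and Bid at -2.28, and Mcl1 at -2.88 by its start region and -1.98 by its upstream region, the one reported. Bcl2 stood at -2.24 and Bcl2l11 at -1.76 by that measure, against -1.89 over all genes. A pseudocount of 0.990, 10% of the median signal, left the 3 medians at -1.74, -1.76 and -1.72. The cause of the other shifts was not tested.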
